A study of Mus musculus with 17 samples.

Results

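Cell cycle and proliferation genes were examined in astrocytes of the cortex and of 3 thalamic nuclei. The 49 genes were found by matching a fixed list of symbols to the Ensembl identifiers of the deposited counts. All 49 were present among the 26556 genes listed. They comprise 17 genes of DNA replication and S phase entry (S phase genes), 25 genes of chromosome segregation and cytokinesis (mitotic genes) and 7 regulators of the G1 phase (G1 regulators). The data are 17 RNA-seq libraries from mice at postnatal day 7, 4 of the somatosensory cortex, 5 of the dorsolateral geniculate nucleus (dLG), 4 of the ventral posteromedial nucleus (VPM) and 4 of the ventral division of the medial geniculate nucleus (MGv). All libraries came from *Gfap::Gfp* animals of the FVB strain, in which a *Gfap* promoter drives green fluorescent protein, and each held the sorted green cells of 4 pooled brains. The labels name no treatment and 1 age, so that all groups shared the transgene, the strain and the sort. A sort on a *Gfap* reporter takes in any cell that holds the protein, and pooled brains give no value per animal.

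A dividing cell copies its DNA in S phase and separates the copies in mitosis. D-type cyclins with their kinases free the E2F factors from the retinoblastoma proteins, E2F factors turn on the replication genes, and MuvB complexes with B-Myb and FoxM1 act on the mitotic genes through CHR elements in their promoters, where NF-Y binds CCAAT elements. The Cip/Kip and Ink4 proteins inhibit the kinases. Astrocytes of the mouse cortex still divide locally in the first postnatal weeks.

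RefSeq promoters (GRCm38.p6) were held for 39 of the 49 genes, 6 of them with 2 promoters. In the 250 bases before the start, CCAAT stood on either strand in 90.9% of 22 promoters of mitotic genes and 68.8% of 16 of S phase genes, against 33.8% of all 32851 promoters. The CHR letters TTTGAA or TTCGAA stood in 40.9% of the mitotic, 12.5% of the S phase and 17.1% of all promoters. The E2F letters TTTCCCGC, TTTCGCGC, TTTGCCGC or TTTGGCGC stood in 31.2% of the S phase, 4.55% of the mitotic and 1.86% of all promoters. A match describes letters and is not a site shown to be bound. Of the 7 promoters of G1 regulators, 2 held CCAAT, and neither E2F nor CHR letters were found in the 250 bases searched. The 120 bases before the start are shown for 2 S phase genes and 4 mitotic genes that differed between groups, to let both kinds of promoter be read side by side. Each is printed 5′ to 3′ on the strand of its gene, with the letters of all 3 motifs in capitals on either strand, and overlapping matches run together. ATTGG is CCAAT on the other strand, TTCAAA is TTTGAA on the other strand, and the E2F letters of *Mcm6* overlap at the first place.
Mcm6, S phase, chr1:128359706-128359825, minus strand: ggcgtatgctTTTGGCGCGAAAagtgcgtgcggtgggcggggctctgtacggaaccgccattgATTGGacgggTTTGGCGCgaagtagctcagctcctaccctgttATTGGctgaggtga
Rrm1, S phase, chr7:102441575-102441694, plus strand: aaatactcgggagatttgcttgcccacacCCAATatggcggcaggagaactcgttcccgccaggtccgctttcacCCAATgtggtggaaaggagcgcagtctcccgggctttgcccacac
Mki67, mitotic, chr7:135716380-135716499, minus strand: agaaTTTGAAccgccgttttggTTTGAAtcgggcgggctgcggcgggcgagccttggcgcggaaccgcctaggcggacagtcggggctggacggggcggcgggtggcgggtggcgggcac
Top2a, mitotic, chr11:99024190-99024309, minus strand: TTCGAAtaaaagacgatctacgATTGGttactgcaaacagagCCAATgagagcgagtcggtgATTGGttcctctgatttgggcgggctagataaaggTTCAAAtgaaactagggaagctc
Ccnb2, mitotic, chr9:70421555-70421674, minus strand: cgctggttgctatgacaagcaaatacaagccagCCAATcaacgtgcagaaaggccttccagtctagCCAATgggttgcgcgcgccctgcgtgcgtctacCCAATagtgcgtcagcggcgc
Hmmr, mitotic, chr11:40733438-40733557, minus strand: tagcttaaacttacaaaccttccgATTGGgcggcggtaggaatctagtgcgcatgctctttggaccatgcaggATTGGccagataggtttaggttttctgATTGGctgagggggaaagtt
In these stretches E2F letters stood only in *Mcm6*, CHR letters in *Mki67* and *Top2a*, and CCAAT in all but *Mki67*. Farther from the start, within the 250 bases searched, *Mki67* also held CCAAT and *Ccnb2* the CHR letters.

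Libraries held between 18213687 and 50366363 counts and between 17749 and 23365 detected genes, with the highest total in cortex replicate a and the fewest genes in dLG replicate c. Levels are given as CPM, read counts scaled to the total and the TMM factor of their library, at which 3 counts correspond to between 0.0648 and 0.167 CPM, a floor that covers counting error only. The smallest count of any of the 49 genes in a library was 124, so depth did not limit their detection, and all 49 passed the filter on low counts in every comparison. The 8 astrocyte markers were all above the floor in the 17 libraries. So were the 6 markers of oligodendrocyte precursors and the 10 neuronal markers, so that passing the floor does not test the label. The name astrocytes is kept here for the sorted green cells. The astrocyte markers summed to between 11673 and 12644 CPM in the cortex. In the thalamus they summed to between 5139 and 14133 CPM, the highest value in MGv replicate c, where *Gfap* alone was at 5525 CPM. The next highest thalamic library was VPM replicate c, at 8197 CPM, below all cortical libraries. Markers of oligodendrocyte precursors, cells that also divide at this age, were abundant in all libraries, with 6 markers summing to between 5991 and 8581 CPM and *Pdgfra* between 783 and 1329 CPM. Summed levels over 6 oligodendrocyte markers were between 1324 and 6149 CPM, over 10 neuronal markers between 444 and 1629 CPM, over 6 neuroblast markers between 149 and 372 CPM and over 6 microglial markers between 6.64 and 95.6 CPM. In bulk samples, fewer cells of a type and less RNA per cell cannot be told apart.

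Levels per length were highest for *Rrm2* among the S phase genes, at a mean of 60.1 CPM per kb, and lowest for *Cdc6*, at 3.34 CPM per kb. Among the mitotic genes they ran from 4.64 CPM per kb for *Kif23* to 44.7 CPM per kb for *Cdc20*, the activator of the anaphase-promoting complex. Among the G1 regulators they ran from 6.89 CPM per kb for *Cdkn1a* to 33.8 CPM per kb for *Ccnd1*.

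Summed over genes, the mitotic genes were highest in mean in the VPM and lowest in the cortex, though libraries overlapped. Their summed level was 1521 ± 184 CPM (SD, n = 4) in the cortex, 1824 ± 282 CPM (n = 5) in the dLG, 2312 ± 282 CPM (n = 4) in the VPM and 1672 ± 239 CPM (n = 4) in the MGv. dLG replicate d, at 2170 CPM, lay above VPM replicates b and d, at 2095 and 2076 CPM. Cortex replicate b, at 1771 CPM, lay above dLG replicates a and e and MGv replicates a, b and c. The mean of the VPM was the highest of the 4 groups for 25 of 25 mitotic genes, against 28.5% of all 17856 genes tested, and the cortex was the lowest for 15 and the MGv for 10. The S phase sum was also highest in the VPM, while that of the cortex lay between those of the MGv and the dLG. It was 1057 ± 105 CPM in the cortex, 1087 ± 227 CPM in the dLG, 1379 ± 92.5 CPM in the VPM and 987 ± 104 CPM in the MGv, and the VPM had the highest mean for 13 of 17 genes. The 4 VPM libraries had S phase sums between 1297 and 1485 CPM, and of the other 13 libraries only dLG replicate d, at 1400 CPM, reached into that range. The mitotic sum was between 1.33 and 1.54 times the S phase sum in the cortex, between 1.59 and 1.80 times in the VPM, between 1.45 and 2.06 times in the dLG and between 1.46 and 2.06 times in the MGv. These sums are descriptions, and the tests below were made gene by gene.

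**Figure D1:**
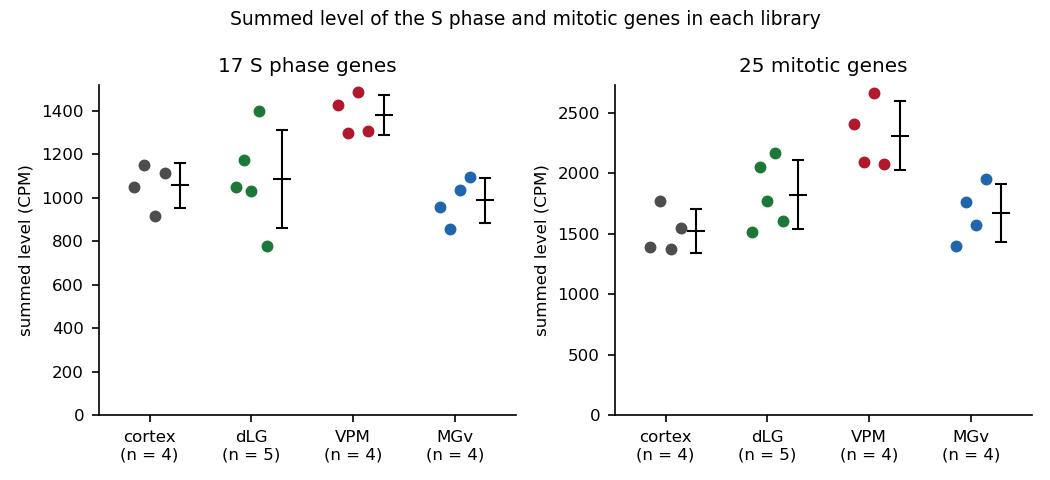
Summed level in CPM of the 17 S phase genes (left) and the 25 mitotic genes (right) in each library (points) of the cortex, dLG, VPM and MGv, with the mean and SD of each group in black. The VPM points lie highest in mean in both panels, while the cortex is the lowest group in the mitotic panel only.

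**Figure D2:**
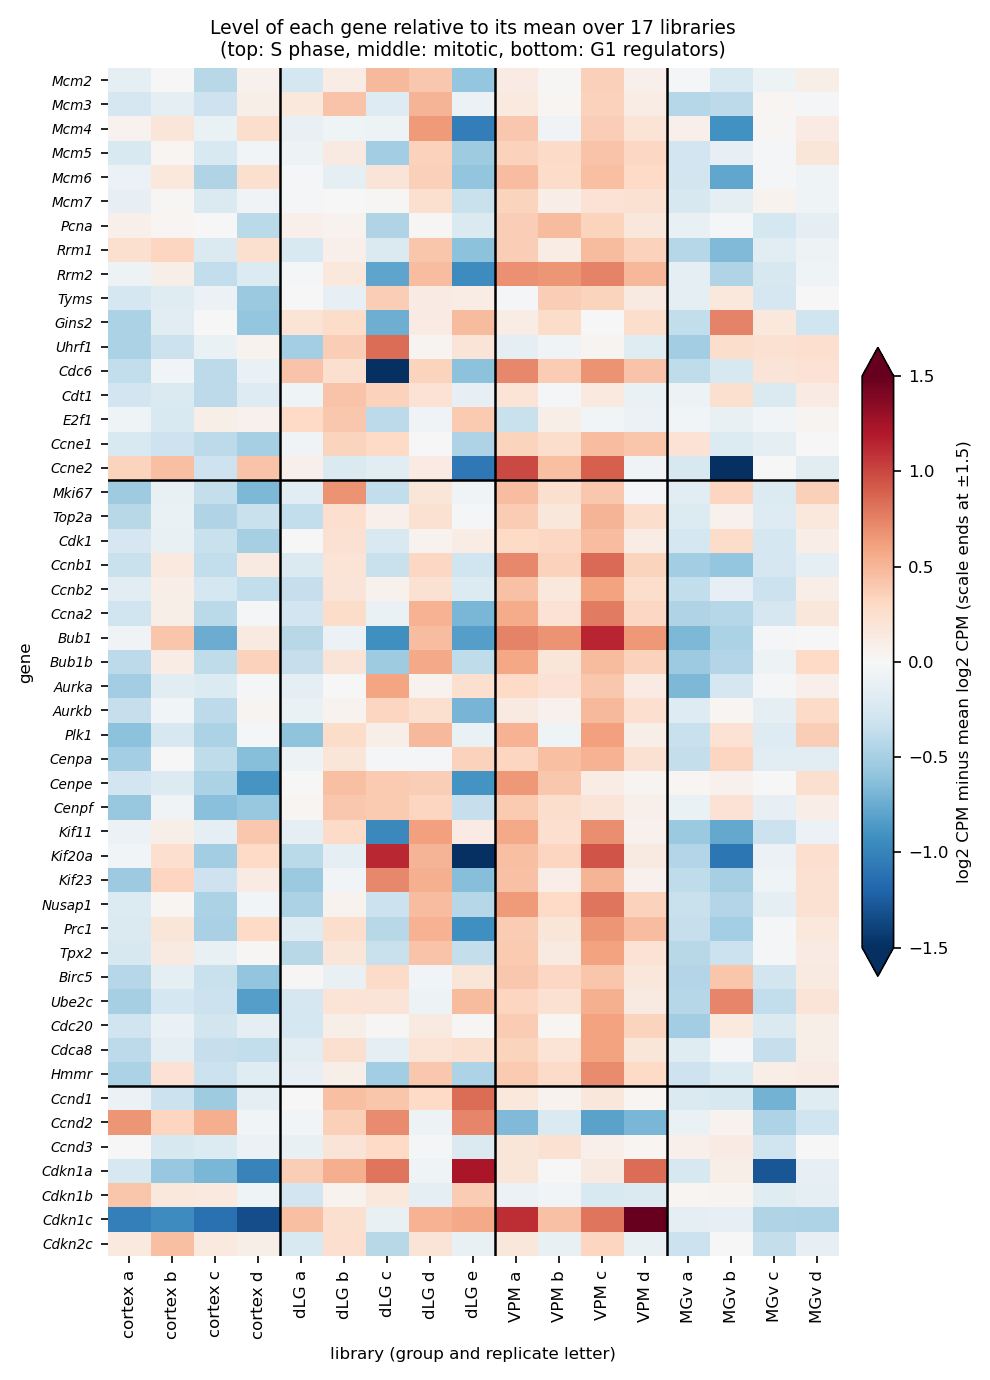
Level of each of the 49 genes (rows) in each of the 17 libraries (columns), as log2 CPM minus the mean log2 CPM of the gene, from blue for lower to red for higher. VPM columns are mostly red in the S phase and mitotic blocks, cortex columns are mostly blue in the mitotic block, and dLG replicates c and e vary most from gene to gene.

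Tests over all 4 groups called 26 of the 49 genes (edgeR's quasi-likelihood test, BH-adjusted p under 0.1, as in all tests below), against 26.3% of all genes. They were 5 of the 17 S phase genes, 17 of the 25 mitotic genes and 4 of the 7 G1 regulators. *Aurka*, the kinase of the spindle poles, was called in this test (adjusted p = 0.0904) and in no other. Lowest in adjusted p among the mitotic genes was *Ccnb1* (0.00585), among the S phase genes *Rrm2* (0.0179), and among the G1 regulators *Cdkn1c* (3.46e-06). The count was 14 without VPM replicate a, 14 without VPM replicate c and 17 without cortex replicate d, where 19.8%, 20.0% and 21.3% of all genes were called.

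Thalamic and cortical astrocytes were compared to ask which genes differ between the regions. In the thalamus 13 of the 49 genes were higher and none was lower, against 5.45% and 5.93% of all 17856 genes called higher and lower. In edgeR no gene was lower at an unadjusted p under 0.05 either. DESeq2 called 15 higher and 0 lower, against 7.79% and 5.75% of all genes. The calls fell on 9 of 25 mitotic genes, 2 of 17 S phase genes and 2 of 7 G1 regulators. The median log2FC was 0.28 over the mitotic genes, of which 24 were above 0, and 0.18 over the S phase genes, of which 14 were above 0, against 0.020 over all genes tested.

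*Cenpf*, a protein of the kinetochore, the platform on which chromosomes attach to the spindle, was at 54.8, 78.6, 52.7 and 54.6 CPM in the 4 cortical libraries and at 63.9 to 108 CPM (median 93.2) in the 13 thalamic ones. Only cortex replicate b reached into the thalamic range, and the log2FC was 0.59 ± 0.14 (SE, adjusted p = 0.0122). *Cenpe*, a kinesin of the kinetochore, was at 40.5, 42.6, 35.5 and 26.6 CPM in the cortex and at 26.5 to 77.1 CPM (median 53.2) in the thalamus, with a log2FC of 0.62 ± 0.19 (adjusted p = 0.0535). The low thalamic library was dLG replicate e, and the other 12 lay above the cortex. *Cenpa*, the histone H3 variant of centromeres, was at 66.5, 93.9, 72.4 and 60.8 CPM in the cortex and at 73.8 to 135 CPM (median 108) in the thalamus, with a log2FC of 0.51 ± 0.16 (adjusted p = 0.0514). *Bub1*, a checkpoint kinase of the kinetochore, was not called (log2FC 0.16 ± 0.33, adjusted p = 0.834).

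*Mki67*, whose protein Ki-67 coats mitotic chromosomes and marks cycling cells, was at 51.4, 68.9, 57.8 and 46.7 CPM in the cortex and at 57.4 to 119 CPM (median 83.8) in the thalamus. The ranges overlapped, with 9 of the 13 thalamic libraries above all cortical ones, and the log2FC was 0.56 ± 0.17 (adjusted p = 0.0495). *Top2a*, the topoisomerase that untangles sister chromatids, was at 114, 142, 111 and 120 CPM in the cortex and at 117 to 216 CPM (median 169) in the thalamus (log2FC 0.44 ± 0.14, adjusted p = 0.0566). *Cdk1*, the kinase of mitotic entry, was at 85.8, 94.2, 80.5 and 72.0 CPM in the cortex and at 84.6 to 140 CPM (median 110) in the thalamus (log2FC 0.40 ± 0.13, adjusted p = 0.0692). Its partners did not pass the test in this comparison, with a log2FC of 0.19 ± 0.23 for *Ccnb1* (adjusted p = 0.701), 0.24 ± 0.16 for *Ccnb2* (0.427) and 0.26 ± 0.22 for *Ccna2* (0.545).

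The chromosomal passenger complex joins the kinase *Aurkb* to *Birc5* (survivin) and *Cdca8* (borealin), and 2 of these 3 genes were higher in the thalamus. *Birc5* was at 42.8, 52.6, 45.8 and 38.2 CPM in the cortex and at 42.6 to 77.0 CPM (median 64.6) in the thalamus (log2FC 0.50 ± 0.15, adjusted p = 0.0472). *Cdca8* was at 68.5, 81.4, 70.4 and 69.3 CPM in the cortex and at 70.3 to 137 CPM (median 102) in the thalamus (log2FC 0.43 ± 0.14, adjusted p = 0.0703). *Aurkb* had a log2FC of 0.26 ± 0.16 (adjusted p = 0.378). *Ube2c*, the ubiquitin carrier of the anaphase-promoting complex, was at 75.7, 88.9, 85.2 and 60.4 CPM in the cortex and at 79.1 to 177 CPM (median 122) in the thalamus (log2FC 0.64 ± 0.18, adjusted p = 0.0346). Of its exonic length 22.8% overlaps *Tnnc2* on the opposite strand, and reads of the pair could be told apart only by strand, the setting of which is not given in the sources used here.

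Among the S phase genes, 2 were higher in the thalamus, and both act at the entry into S phase, but other entry genes were not called. *Ccne2*, cyclin E2, had a log2FC of -0.18 ± 0.31 (adjusted p = 0.795) and the licensing factor *Cdc6* one of 0.39 ± 0.28 (adjusted p = 0.459). *Ccne1*, cyclin E1, was at 26.7, 25.2, 23.8 and 22.1 CPM in the cortex and at 22.8 to 43.1 CPM (median 36.5) in the thalamus, where 12 of 13 libraries lay above the cortex (log2FC 0.49 ± 0.15, adjusted p = 0.0577). *Cdt1*, which loads the replicative helicase onto origins, was at 25.9, 27.3, 24.2 and 27.9 CPM in the cortex and at 27.2 to 42.7 CPM (median 34.5) in the thalamus (log2FC 0.37 ± 0.13, adjusted p = 0.0905). The following genes of DNA synthesis did not pass the test. The log2FC was 0.18 ± 0.15 for the helicase subunit *Mcm2*, 0.068 ± 0.19 for *Mcm6*, 0.11 ± 0.15 for the sliding clamp *Pcna*, and 0.27 ± 0.26 for *Rrm2* and -0.16 ± 0.19 for *Rrm1*, the subunits of ribonucleotide reductase. *Tyms*, thymidylate synthase, had a log2FC of 0.36 ± 0.13 (adjusted p = 0.118) and the transcription factor *E2f1* one of 0.056 ± 0.15 (adjusted p = 0.883).

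The largest difference of the 49 genes between the regions was that of *Cdkn1c* (ENSMUSG00000037664, chr7:143458339-143461050, minus strand, GRCm38), which encodes the kinase inhibitor p57Kip2. It was at 25.0, 26.5, 23.3 and 20.2 CPM in the cortex and at 36.9 to 150 CPM (median 69.1) in the thalamus. It was the one gene of the 49 whose regions did not overlap, where 1.67% of all genes were without overlap in this direction, and its log2FC was 1.56 ± 0.32 (adjusted p = 0.0031). *Cdkn1a*, which encodes the inhibitor p21Cip1, was at 18.8, 15.1, 13.8 and 11.1 CPM in the cortex and at 9.17 to 52.1 CPM (median 24.5) in the thalamus (log2FC 0.90 ± 0.31, adjusted p = 0.0795). The low thalamic library was MGv replicate c, and MGv replicate a, at 18.8 CPM, was level with the highest cortical one. The other inhibitors did not pass the test, with a log2FC of -0.22 ± 0.12 for *Cdkn1b* and -0.26 ± 0.13 for *Cdkn2c*, nor did the D-type cyclins, at 0.39 ± 0.19 for *Ccnd1*, -0.43 ± 0.24 for *Ccnd2* and 0.19 ± 0.11 for *Ccnd3*. Of the exonic length of *Cdkn1c*, 30.7% overlaps *Gm44732* on the opposite strand.

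With 4 cortical libraries, the count of genes higher in the thalamus fell to 4 without cortex replicate a, 7 without replicate c and 3 without replicate d. In the same fits the share of all genes called higher fell to 3.44%, 4.08% and 2.93%. Whether the calls rested on these particular libraries or on the number of libraries was not tested. The labels number the libraries in 3 series that share their first digits, one of them holding dLG replicate c alone, and do not say what a series stands for. In the largest number series alone (2 cortical and 8 thalamic libraries), 24 of 25 mitotic genes had a log2FC above 0 (median 0.33) and 2 of the 49 genes were called higher, *Cenpe* and *Cenpf*, against 1.86% of all genes. In the smaller number series alone (2 cortical and 4 thalamic libraries) 25 of 25 were above 0 (median 0.40) and 1 was called higher, *Cdkn1c* (log2FC 1.68 ± 0.24, adjusted p = 0.0153), against 0.718% of all genes. Markers moved with the region. In the thalamus 3 of 8 astrocyte markers, 3 of 5 neuroblast markers tested and both ependymal markers tested were lower, against 5.93% of all genes. Of 10 neuronal markers 3 were higher and 1 was lower, where 5.45% of all genes were called higher. Of 3 fibroblast markers tested 1 was higher and 1 lower, and of 6 endothelial and pericyte markers 1 was lower. Of the 6 markers each of oligodendrocyte precursors, oligodendrocytes and microglia 0 were called, with a median log2FC of 0.15, 0.17 and 1.44. All 6 microglial markers had a log2FC above 0. The part of the markers in the result was not tested.

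VPM astrocytes were compared with the mean of the dLG and MGv to ask what sets a nucleus apart. In the VPM 13 of the 49 genes were higher and 1 was lower, against 7.07% and 9.78% of all 17319 genes tested. The higher genes were 5 of 17 S phase genes, 7 of 25 mitotic genes and 1 of 7 G1 regulators. The log2FC was above 0 for 25 of 25 mitotic genes (median 0.34) and for 14 of 17 S phase genes (median 0.29), where the median of all genes was -0.024.

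Both subunits of ribonucleotide reductase, which makes the deoxyribonucleotides for DNA synthesis, were higher in the VPM. *Rrm2* (ENSMUSG00000020649, chr12:24708241-24714146, plus strand) was at 254, 249, 265 and 223 CPM in the 4 VPM libraries, at 154, 176, 91.1, 218 and 82.4 CPM in the dLG and at 144, 115, 134 and 151 CPM in the MGv. The VPM lay above all 9 other thalamic libraries, with a log2FC of 0.79 ± 0.20 (adjusted p = 0.0248). *Rrm1* was at 199, 166, 213 and 196 CPM in the VPM, at 132, 163, 132, 206 and 100.1 CPM in the dLG and at 115, 97.6, 136 and 146 CPM in the MGv, so that dLG replicate d lay inside the VPM range (log2FC 0.49 ± 0.16, adjusted p = 0.0594).

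*Pcna*, the clamp that holds DNA polymerases, was at 71.8, 77.5, 70.2 and 62.5 CPM in the VPM, at 58.8, 57.6, 40.7, 56.3 and 47.9 CPM in the dLG and at 51.5, 55.0, 46.4 and 50.4 CPM in the MGv. Here too the VPM did not overlap the others (log2FC 0.42 ± 0.12, adjusted p = 0.0389). *Mcm6* was at 165, 144, 163 and 147 CPM in the VPM, at 117, 107, 137, 152 and 79.3 CPM in the dLG and at 98.6, 69.4, 117 and 114 CPM in the MGv (log2FC 0.48 ± 0.16, adjusted p = 0.066), and dLG replicate d lay inside the VPM range. *Ccne2*, cyclin E2, was at 52.4, 36.2, 49.2 and 25.4 CPM in the VPM, at 27.9, 22.8, 23.5, 28.9 and 12.6 CPM in the dLG and at 22.4, 9.17, 26.6 and 23.6 CPM in the MGv (log2FC 0.87 ± 0.26, adjusted p = 0.0497). VPM replicate d lay inside the range of the others for *Ccne2*, and 17.4% of the exonic length of the gene overlaps *Ints8* on the opposite strand. *Mcm2*, *Tyms*, *Cdt1*, *E2f1* and *Ccne1* did not pass the test, with a log2FC of 0.10 ± 0.16, 0.15 ± 0.13, -0.075 ± 0.14, -0.18 ± 0.17 and 0.33 ± 0.14.

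Cyclins of G2 and mitosis were higher in the VPM. *Ccnb1* (ENSMUSG00000041431, chr13:100778650-100786570, minus strand), cyclin B1, was at 106, 81.3, 115 and 80.2 CPM in the VPM, at 55.0, 73.7, 50.5, 79.4 and 52.0 CPM in the dLG and at 44.6, 42.8, 53.8 and 57.7 CPM in the MGv. The VPM lay above the others in all 4 libraries, with dLG replicate d close below, and the log2FC was 0.75 ± 0.15 (adjusted p = 0.00945). *Ccnb2* was at 85.3, 70.4, 95.8 and 75.4 CPM in the VPM, at 49.5, 71.9, 65.8, 73.9 and 54.6 CPM in the dLG and at 48.7, 57.7, 50.2 and 67.6 CPM in the MGv (log2FC 0.42 ± 0.13, adjusted p = 0.0564). *Ccna2*, cyclin A2, was at 174, 137, 202 and 146 CPM in the VPM, at 96.1, 143, 110, 169 and 73.1 CPM in the dLG and at 85.7, 87.4, 98.7 and 133 CPM in the MGv (log2FC 0.56 ± 0.19, adjusted p = 0.0705). dLG replicates b and d reached into the VPM range for *Ccnb2* and *Ccna2*. Of the exonic length of *Ccna2* 12.5% overlaps *Exosc9* on the opposite strand.

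*Bub1* (ENSMUSG00000027379, chr2:127801122-127831865, minus strand), a kinase of the spindle checkpoint, had the largest log2FC of the mitotic genes. It was at 61.0, 58.2, 80.5 and 57.4 CPM in the VPM, at 27.5, 34.5, 19.3, 50.3 and 20.6 CPM in the dLG and at 22.9, 26.3, 36.0 and 36.3 CPM in the MGv. The groups did not overlap, and the log2FC was 1.05 ± 0.22 (adjusted p = 0.0113). *Rrm2*, *Pcna*, *Ccnb1* and *Bub1* were the 4 genes of the 49 whose lowest VPM library lay above the highest of the others, as did 4.04% of all genes.

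*Nusap1*, a protein of spindle microtubules, was at 147, 115, 164 and 119 CPM in the VPM, at 67.4, 97.7, 75.2, 129 and 70.0 CPM in the dLG and at 74.7, 69.6, 85.0 and 110 CPM in the MGv (log2FC 0.62 ± 0.17, adjusted p = 0.0368). *Hmmr*, which takes part in spindle assembly, was at 62.3, 58.1, 77.9 and 58.6 CPM in the VPM, at 43.7, 50.5, 33.2, 62.9 and 34.4 CPM in the dLG and at 38.3, 41.3, 51.1 and 51.9 CPM in the MGv (log2FC 0.47 ± 0.16, adjusted p = 0.0797). *Cdc20* was at 106, 84.0, 125 and 103 CPM in the VPM, at 68.4, 86.9, 82.8, 90.4 and 82.8 CPM in the dLG and at 57.0, 90.7, 70.7 and 87.1 CPM in the MGv (log2FC 0.37 ± 0.14, adjusted p = 0.0978). dLG replicate d reached into the VPM range for all 3 genes, and dLG replicate b and MGv replicates b and d did so for *Cdc20*.

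The 9 mitotic genes higher in the thalamus had a log2FC in the VPM between 0.10 (*Cenpf*, ± 0.13) and 0.34 (*Cenpa*, ± 0.13), and the lowest adjusted p among them was that of *Cdca8* (log2FC 0.32 ± 0.12, adjusted p = 0.109). For *Mki67* it was 0.15 ± 0.18, for *Top2a* 0.30 ± 0.12, for *Cdk1* 0.26 ± 0.12, for *Birc5* 0.26 ± 0.15, for *Ube2c* 0.16 ± 0.19 and for *Cenpe* 0.18 ± 0.20. The VPM libraries are part of the thalamic group, so both comparisons share libraries, and the difference between them was not tested.

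Against each of the other nuclei by itself, 6 genes were higher in the VPM, namely *Bub1*, *Ccnb1*, *Rrm2*, *Cdkn1c*, *Nusap1* and *Pcna*, with the larger of the 2 adjusted p between 0.0353 for *Bub1* and 0.0953 for *Pcna*. The share of all genes that passed in this way was 2.00%. The count of 13 was 4 without VPM replicate a, 5 without replicate c and 8 without replicate d, but 21 without dLG replicate d and 22 where the cortex entered the fit. The share of all genes called higher in these fits was 2.12%, 2.62%, 3.32%, 10.3% and 10.3%. In the largest number series alone, which holds 2 VPM, 2 dLG and 4 MGv libraries, 22 of 25 mitotic genes had a log2FC above 0 (median 0.48) and *Bub1*, *Ccnb1*, *Rrm2*, *Nusap1* and *Cdkn1c* were called higher, against 1.94% of all genes. *Bub1*, *Ccnb1*, *Rrm2* and *Cdkn1c* passed the test with any 1 library left out.

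Markers of other cells moved with the VPM. All 6 oligodendrocyte markers were higher there, with sums of 6149, 2127, 3921 and 4760 CPM in the 4 libraries against 1324 to 3539 CPM in the other nuclei, while 2 of 6 precursor markers, *Cspg4* and *Pdgfra*, and all 6 microglial markers were lower. VPM replicate b lay within the oligodendrocyte marker range of the other nuclei. Of 10 neuronal markers 2 were higher, and of 3 neuroblast and 3 fibroblast markers tested 1 each was lower. Shares of all genes called higher and lower in this comparison were 7.07% and 9.78%. Precursor markers summed to 6202 to 8310 CPM in the VPM and to 5991 to 8581 CPM in the dLG and MGv together. Of 8 astrocyte markers 2 were higher in the VPM, the connexins *Gjb6* (log2FC 1.71 ± 0.13) and *Gja1* (0.63 ± 0.16), and 1 was lower, *Gfap* (-6.37 ± 1.26). *Gfap*, the gene whose promoter drives the reporter, was at 8.98, 19.3, 11.8 and 9.37 CPM in the VPM against 36.1 to 5525 CPM in the other nuclei. The part of these markers in the result was not tested.

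**Figure D3:**
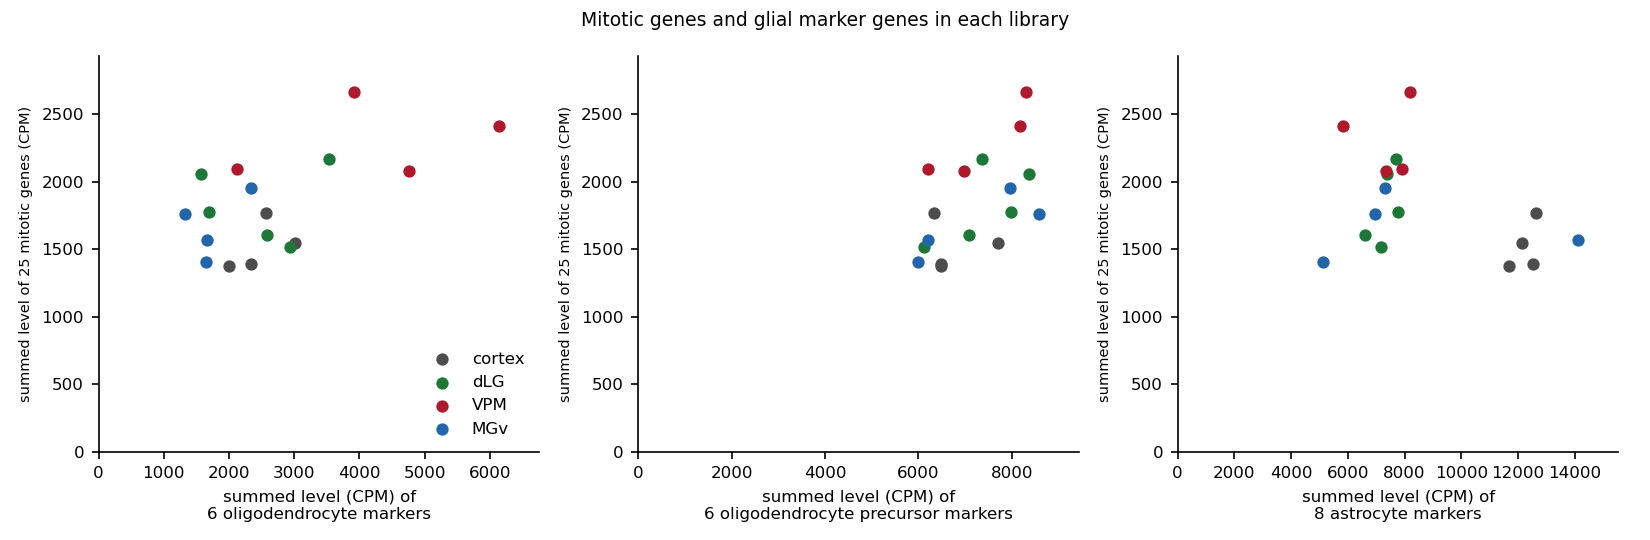
Summed level of the 25 mitotic genes (vertical axis, CPM) against the summed level of 6 oligodendrocyte, 6 oligodendrocyte precursor and 8 astrocyte markers (horizontal axes, CPM), 1 point for each library, coloured by group. 3 of the 4 VPM libraries lie to the right of all others in the oligodendrocyte panel and VPM replicate b lies among them at 2127 CPM, while the precursor panel shows no separation of the VPM.

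Of the 7 G1 regulators, the cortex had the highest mean for 3, the dLG for 2 and the VPM for 2. The mean of *Cdkn1c* was 23.7 ± 2.7 CPM in the cortex, 41.8 ± 5.56 CPM in the MGv, 65.0 ± 11.5 CPM in the dLG and 104 ± 34.5 CPM in the VPM. It was at 109, 69.1, 88.3 and 150 CPM in the VPM, at 69.6, 60.2, 47.1, 72.7 and 75.5 CPM in the dLG and at 46.5, 46.7, 37.1 and 36.9 CPM in the MGv. VPM replicate b lay inside the dLG range, and the MGv lay below all dLG and VPM libraries. The log2FC was 0.96 ± 0.18 in the VPM (adjusted p = 0.0066) and -0.96 ± 0.19 in the MGv (adjusted p = 0.0193).

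Cyclin D2 was lower in the VPM and higher in the dLG. *Ccnd2* was at 162, 221, 147 and 159 CPM in the VPM, at 250, 328, 419, 244 and 427 CPM in the dLG, at 240, 266, 186 and 209 CPM in the MGv and at 405, 319, 375 and 250 CPM in the cortex. Its log2FC was -0.70 ± 0.18 in the VPM (adjusted p = 0.028) and 0.77 ± 0.16 in the dLG (adjusted p = 0.043). dLG replicates b, c and e lay above all VPM and MGv libraries, while a and d lay inside the MGv range. The VPM call was lost without VPM replicate a or c.

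*Ccnd1*, cyclin D1, was at 155, 210.5, 205, 190.0 and 276 CPM in the dLG, at 133, 130.0, 94.7 and 136 CPM in the MGv, at 171, 160.4, 174 and 157 CPM in the VPM and at 145, 124, 107 and 139 CPM in the cortex. MGv libraries lay below all other thalamic libraries, whereas the dLG and VPM overlapped. The log2FC was 0.55 ± 0.13 in the dLG (adjusted p = 0.0799) and -0.57 ± 0.14 in the MGv (adjusted p = 0.0708). Of its exonic length 23.4% overlaps *LTO1* on the opposite strand.

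*Cdkn1a* was highest in the dLG, at 28.8, 32.4, 38.8, 21.4 and 52.1 CPM, and lowest within the thalamus in the MGv, at 18.8, 23.7, 9.17 and 20.4 CPM. The groups overlapped and the log2FC of 0.65 ± 0.24 in the dLG (adjusted p = 0.357) and of -0.77 ± 0.27 in the MGv (adjusted p = 0.226) did not pass the test. *Ccnd3*, *Cdkn1b* and *Cdkn2c* had a log2FC between -0.19 and 0.16 for each nucleus against the others, and none of them was called in any comparison. dLG replicate e had the highest *Ccnd1*, *Ccnd2* and *Cdkn1a* levels of the 17 libraries and the lowest S phase sum, at 778 CPM. It also had the highest sum of neuroblast markers, at 372 CPM, most of it from *Sox11* (240 CPM) and *Dcx* (118 CPM). The other neuroblast markers were low there, *Dlx1* and *Eomes* at 0, *Dlx2* at 0.101 and *Cd24a* at 14.4 CPM. A relation between these values was not tested.

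**Figure D4:**
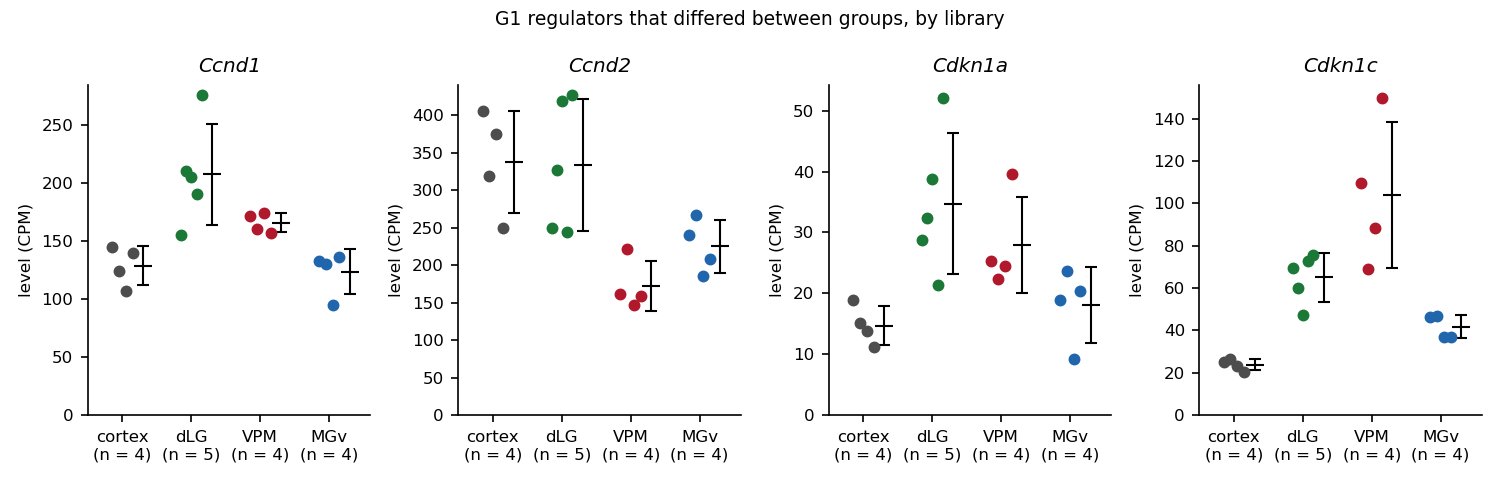
Levels in CPM of *Ccnd1*, *Ccnd2*, *Cdkn1a* and *Cdkn1c* in each library (points) of the 4 groups, with mean and SD in black. *Cdkn1c* is between 20.2 and 26.5 CPM in the cortex and above 36 CPM in all thalamic libraries, and *Ccnd2* is lowest in the VPM.

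In the dLG as a whole 2 of the 49 genes were higher, *Ccnd1* and *Ccnd2*, and none was lower, against 0.941% and 0.214% of all genes. In edgeR 1 gene had an unadjusted p under 0.05 in the lower direction, *Bub1* (log2FC -0.53 ± 0.22, adjusted p = 0.417). DESeq2 called 2 higher and 0 lower, against 2.21% and 0.791% of all genes. The count of higher genes fell to 0 without dLG replicate b, c or e, without VPM replicate c, with the replicate block and with the number series as a covariate, fits in which between 0.479% and 0.677% of all genes were called higher. Levels of the S phase and mitotic genes varied widely among the dLG libraries. *Kif20a*, a kinesin of cytokinesis, and *Cdc6*, a licensing factor, singled out after their values were seen, were at 74.2 and 5.86 CPM in dLG replicate c, the highest and the lowest level of the 17 libraries, and 29.3% of the exonic length of *Kif20a* overlaps *Cdc23*.

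In the MGv 3 of the 49 genes were lower, *Cdkn1c*, *Ccnd1* and *Ccnb1*, and none was higher, against 0.756% and 1.57% of all genes. *Ccnb1* had a log2FC of -0.61 ± 0.16 (adjusted p = 0.0754). The groups did not overlap for 2 of the 49 genes, *Cdkn1c* and *Ccnd1*, as for 0.404% of all genes in this direction. All 25 mitotic genes had a log2FC below 0 in the MGv (median -0.29) and 15 of 17 S phase genes (median -0.20), where the median of all genes was 0.023. For each gene the 3 log2FC of the nuclei sum to 0, so these signs are not separate from the high values of the VPM. In edgeR 0 genes were higher and 15 lower at an unadjusted p under 0.05. DESeq2 called 4 lower and 0 higher, against 2.06% and 3.57% of all genes. Without any 1 of the MGv libraries, VPM replicate a or c, or dLG replicate b, 1 gene was called lower, *Cdkn1c* in each case, in fits that called between 0.360% and 0.687% of all genes lower.

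**Figure D5:**
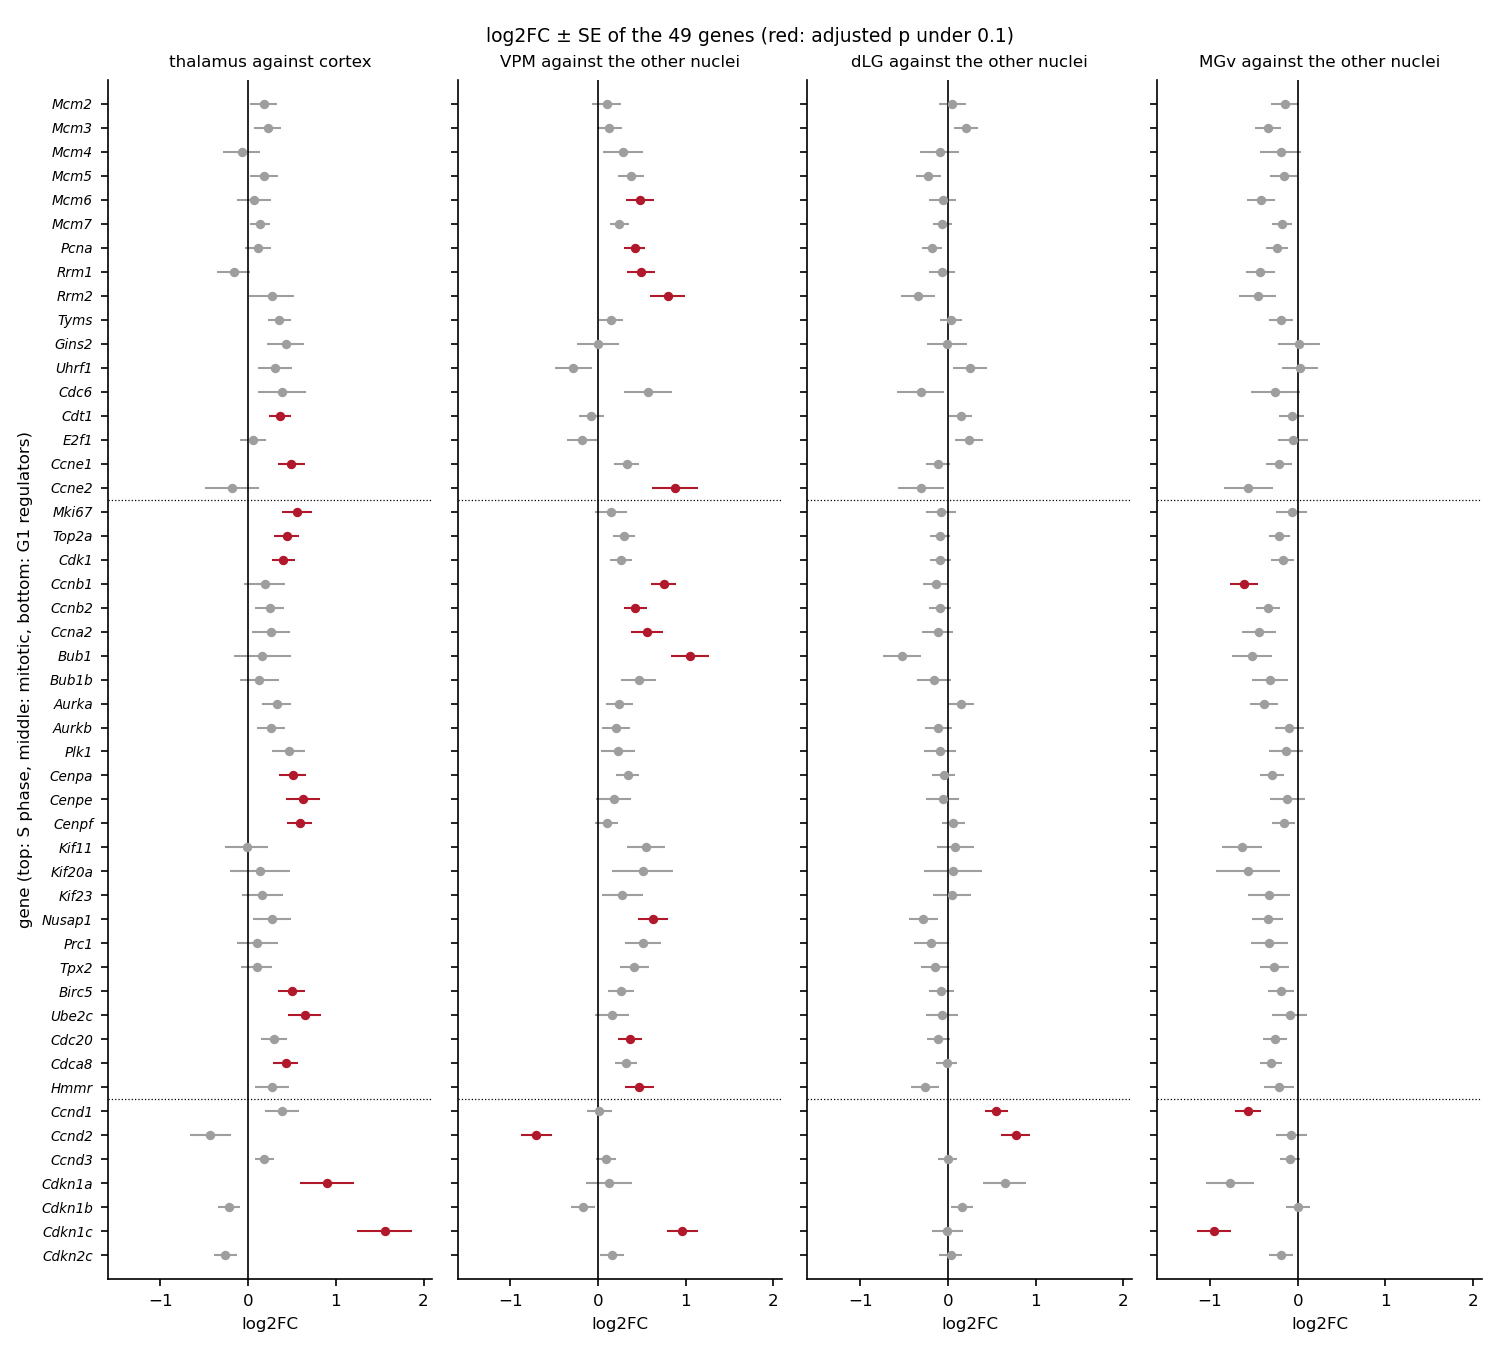
log2FC ± SE of the 49 genes (rows) for the thalamus against the cortex and for each nucleus against the mean of the other nuclei, with called genes in red and the others in grey. Called mitotic genes of the thalamus panel (such as *Cenpf* and *Mki67*) are grey in the VPM panel, where *Bub1* and *Ccnb1* are red, and all mitotic genes lie left of 0 in the MGv panel.

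The remaining 14 genes, 7 S phase and 7 mitotic, were called in no comparison. Their log2FC in the VPM was between -0.28 and 0.57 for the S phase and between 0.23 and 0.55 for the mitotic genes, with a lowest adjusted p of 0.113.

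Further genes of the cell cycle, in lists drawn up for this comparison, were measured beside the 49. These lists too were chosen with earlier results of these data known. They were measured in the same libraries, so they are not separate support for the results above. Of 70 other mitotic genes 20 (28.6%) were higher and 0 lower in the VPM (median log2FC 0.34), against 7.07% and 9.78% of all genes, the lowest in p being *Mad2l1* of the spindle checkpoint (0.59 ± 0.11, adjusted p = 0.00802), *Spc25* of the kinetochore (0.59 ± 0.13) and *Fbxo5*, an inhibitor of the anaphase-promoting complex (0.48 ± 0.12). At an unadjusted p under 0.05 edgeR had 26 of them higher and 1 lower, and DESeq2 called 22 and 1. Between the regions 6 (8.57%) were higher in the thalamus and 0 lower, against 5.45% and 5.93% of all genes, the first share not far above that of all genes. At an unadjusted p under 0.05 edgeR had 17 and 0, and DESeq2 called 13 and 0. Lowest in p were *Fam83d* (0.66 ± 0.15), *Spc24* (0.60 ± 0.19) and *Cenpm* (0.58 ± 0.20).

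Of 40 other S phase genes 8 (20.0%) were higher and 0 lower in the thalamus (median log2FC 0.25), against 5.45% and 5.93% of all genes, led by the ligase *Lig1* (0.46 ± 0.092, adjusted p = 0.00286), the thymidine kinase *Tk1* (0.63 ± 0.17) and *Gins1* of the replicative helicase (0.60 ± 0.17), with 12 and 0 at an unadjusted p under 0.05 and 11 and 0 in DESeq2. In the VPM 3 (7.50%) were higher and 1 (2.50%) lower, against 7.07% and 9.78% of all genes, the first a share near that of all genes. The higher ones were *Rfc4* of the clamp loader (0.73 ± 0.13, adjusted p = 0.00486), *Tipin* and the primase *Prim1*, and the lower one was *Brca2* (-0.59 ± 0.21, adjusted p = 0.0868, named after its value was seen). In the dLG 1 (2.50%) was higher, *Hells* (0.48 ± 0.11), against 0.941% of all genes, and in the MGv 1 (2.50%) was lower, against 0.756%, *Rfc4* (-0.58 ± 0.13).

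Of 30 other regulators of G1, 29 were tested. In the thalamus 5 (17.2%) were lower, against 5.93% of all genes, led by *Gas1* (-0.77 ± 0.14, adjusted p = 0.00135), *Cdk2* (-0.41 ± 0.12) and the retinoblastoma gene *Rb1* (-0.44 ± 0.13), and 0 were higher, with 2 higher at an unadjusted p under 0.05 and 1 in DESeq2. In the VPM 3 (10.3%) were higher and 4 (13.8%) lower, against 7.07% and 9.78% of all genes, both shares not far above those of all genes. Lowest in p were *Btg2* (-2.24 ± 0.28, adjusted p = 0.000717) and *Btg1* (-0.84 ± 0.17), which restrain proliferation, and *Ccng1* (0.80 ± 0.22). In the MGv 3 (10.3%) were higher, against 1.57% of all genes, *Btg2* (2.21 ± 0.24, adjusted p = 0.000154), the kinase *Cdk6* (1.48 ± 0.26) and *Btg1* (0.68 ± 0.16), and 1 (3.45%) was lower, against 0.756% of all genes, *Myc* (-0.52 ± 0.14, likewise named after its value was seen). In the dLG 0 of the other mitotic genes and 0 of the other G1 regulators were called, where edgeR had 1 lower and 3 higher at an unadjusted p under 0.05 and DESeq2 called 0 and 1. In the MGv 0 of the other mitotic genes were called, with 18 lower at an unadjusted p under 0.05 in edgeR and 4 called lower by DESeq2.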

How the data were processed

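Per the labels and the study's methods, the authors sorted green fluorescent cells, sequenced the RNA, checked reads with FastQC (0.11.7), trimmed adapters with Cutadapt and Trim Galore, aligned them to mm10 with STAR (2.7.0d), used SAMtools (1.9) and counted reads per Ensembl gene with featureCounts of Subread (1.6.4). The strand setting is not given in the sources used here. The deposited values are raw counts per gene, 1 file per library, and genes under 10 reads over all libraries appear to be left out. Symbols were found for 26548 of 26556 identifiers, and 8 were not matched. Coordinates are those of GRCm38.

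From the counts, edgeR (4.0.16, R 4.3.3) was run with filterByExpr, TMM factors and the robust quasi-likelihood test, with Benjamini-Hochberg adjustment over all genes tested and a threshold of 0.1 on adjusted p. The thalamus (13 libraries) was compared with the cortex (4), each nucleus with the mean of the other 2 in a fit of the 13 thalamic libraries, and all 4 groups by an F test. SE is the absolute log2FC divided by the square root of F. The tests were checked on simulated data. There DESeq2 made false calls more often than edgeR and above its nominal rate, but this does not rank the tools. In the simulation, genes that failed the low-count filter were given the largest fitted spread. DESeq2 was run without that filter and so tested genes of this kind. The tools did not test the same genes, with 21334 in DESeq2 and 17919 in edgeR for the thalamus against the cortex. The planted log2FC were 1 or 2 in size, so smaller differences were not tried. The simulation therefore cannot give the rate of false calls among the cell cycle genes for either tool. DESeq2 counts are given for comparison only. Named are the genes called in any comparison plus a fixed set of well known ones, 35 in all, and of other lists the 3 lowest in p. The members and lists were chosen with earlier results of these data known. Alternatives were DESeq2 (1.42.0), other filters and thresholds, other fits, single libraries left out, the replicate block and the number series a library belongs to. The labels do not say whether libraries of a group came from separate litters or sorts, and p-values measure the spread between these libraries, each a pool of 4 brains. Promoter sequences are from RefSeq.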

Additional observations from a re-analysis of the deposited data

Results flagged for a closer look

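Of 140 groups of libraries tested (35 genes in 4 groups), 6 held 1 library whose gap to the nearest other was large against the range of the group (Dixon's test at the 95% level, which flags about 1 in 20 groups by chance). *Bub1* was at 80.5 CPM in VPM replicate c, with the nearest library at 61.0 CPM. *Cenpf*, *Cdca8* and *Cdkn2c* were at 78.6, 81.4 and 94.1 CPM in cortex replicate b, with the nearest cortical libraries at 54.8, 70.4 and 76.2 CPM. *Ccnd1* was at 94.7 CPM in MGv replicate c, below the next at 130.0 CPM. *Cdkn1a* was at 39.6 CPM in VPM replicate d, above the next at 25.2 CPM.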

How the results depend on the processing

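None of the 32 results for single genes changed direction under any alternative run. *Rrm2*, *Ccnb1*, *Bub1* and *Cdkn1c* were called higher in the VPM under all 25 alternatives, and *Cenpf* and *Cdkn1c* were called higher in the thalamus under 28 of 29. At a threshold of 0.05 the counts of genes higher were 5 in the thalamus, 7 in the VPM and 1 in the dLG. In the MGv 1 was lower. The share of all genes called at that threshold was 3.43%, 3.74%, 0.549% and 0.427%. In the largest number series alone 2 were higher in the thalamus, 5 in the VPM and 0 in the dLG, and 8 differed over the 4 groups. There 1.86%, 1.94%, 0.143% and 11.4% of all genes were called. The smaller number series holds no MGv library and could be run only for the thalamus against the cortex. In that series 1 was higher, against 0.718% of all genes. With all 4 groups in 1 fit, 22 were higher in the VPM and 1, *Ccnd2*, was lower in the thalamus. Of all genes 10.3% and 8.48% were called in these directions. Against each other nucleus separately, 6 were higher and 0 lower in the VPM, 0 higher in the dLG and 0 lower in the MGv. The shares of all genes were 2.00%, 3.92%, 0.214% and 0.191%. With the number series as a covariate 0 were higher in the dLG and 1 lower in the MGv, against 0.479% and 0.514% of all genes. Without the filter on low counts 1 was higher in the dLG, against 0.544% of all genes. An alternative chosen after seeing the data left out dLG c, MGv c and cortex a together. It had 9 higher in the thalamus, 12 in the VPM and 0 in the dLG, and 3 lower in the MGv. Of all genes 4.48%, 8.09%, 0.630% and 0.709% were called there. The cause of these changes was not tested.

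Leaving out single libraries, the counts ranged from 3 to 14 higher in the thalamus, 0 to 2 higher and 0 to 1 lower (*Bub1*, without dLG replicate d) in the dLG, 4 to 21 higher and 0 to 1 lower in the VPM, 1 to 4 lower in the MGv, and 14 to 33 over the 4 groups (14 without VPM replicate a or c, 33 without dLG replicate d). In these left-out fits the share of all genes called higher ranged from 2.84% to 6.74% in the thalamus. For the dLG 0.525% to 2.23% were higher and 0.106% to 0.588% lower. For the VPM 2.12% to 10.3% were higher and 3.46% to 12.4% lower. In the MGv 0.360% to 1.38% were lower, and over the 4 groups 19.4% to 31.9% differed. DESeq2 called 15 higher in the thalamus, 18 in the VPM and 28 over the 4 groups. Its shares of all genes were 7.79%, 9.16% and 30.7%.

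The replicate letters were not taken to pair libraries. This rests on correlations between libraries of different groups, made on log2 CPM after the group mean of each gene was taken off. For the same letter they were between -0.17 and 0.27 (median 0.020, 24 pairs) and over 0.1 in 6 pairs. For different letters they were between -0.45 and 0.35 (median -0.0070, 84 pairs) and over 0.1 in 19 pairs. With the replicate block, 10 genes were higher in the thalamus, 14 in the VPM and 0 in the dLG. In the MGv 5 were lower, and 28 differed over the 4 groups. The shares of all genes were 4.59%, 7.86%, 0.560%, 1.46% and 26.3%. Depth did not limit these genes, as each had at least 124 counts in every library.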
